A study of Mus musculus with 28 samples.

Results

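The liver makes most of the proteins that circulate in blood plasma, and 38 of the 4799 named genes on the array belonged to that set by their symbols. They were chosen from the probe annotation as genes of complement (the C, Cf and Mbl symbols), coagulation factors, fibrinogen chains, plasminogen, serpins, apolipoproteins, inter-alpha-trypsin inhibitor chains and the carriers albumin, transferrin, fetuin-A and Ambp, with Apoa4, Serpina6 and C1qc left out. The 38 genes held 6 complement genes, 8 genes of coagulation and fibrinolysis, 8 secreted serpins, 5 intracellular serpins, the collagen chaperone Serpinh1, 7 apolipoproteins, the carrier fetuin-A (Ahsg), and C1d and C1qbp. The last pair match by symbol only: C1d is a nuclear protein and C1qbp a mitochondrial one. Intracellular serpins, Serpinh1 and the product of F3, tissue factor, are likewise no plasma proteins in the usual sense. The label therefore fits at most the complement, other coagulation, secreted serpin, apolipoprotein and carrier genes.

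The samples were livers of 15 C57BL/6 mice, an inbred strain, aged 12 to 16 weeks, in 3 groups of 5. Fasted mice had 2 weeks of chow and were then kept without food for 16 h, high-fat mice had 2 weeks of a diet rich in fat, and control mice had 2 weeks of chow. No sex is given in the labels. RNA from a pair of mice was hybridised together on a two-colour array and again with the dyes exchanged, which gave 28 arrays for 14 pairs. Of these, 4 joined a fasted and a control mouse, 5 a fasted and a high-fat mouse, and 5 a high-fat and a control mouse.

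Each value is a log2 ratio of the 2 livers of a pair, so a value of -1 is a level 2-fold lower. The base of the log and the direction of the ratio are not stated in the labels. The base was taken as 2 and the ratio was read as the second-named over the first-named liver of a title. That direction is likely but not certain, and the opposite reading would swap the words higher and lower throughout. Only ratios were used here, so the level of a gene, its signal over background and the summed level of any marker list are unknown. Precision is limited by the number of pairs. In whole liver, fewer cells of a type and less RNA per cell cannot be told apart. Every gene of the set had 2 spots, which were averaged. A gene passed the test when its adjusted p, over all 11457 genes and unnamed spots of the array, was under 0.05. The second array of fasted 15 and control 2 stood apart, with a standard deviation of 1.26 over spots against at most 0.839 on the other arrays, and the counts of the fasted and control comparison were the same without that pair (14 genes lower and 1 higher). Exchanged dyes should give the arrays of a swap opposite signs before they are turned, yet 10 of the 14 swaps correlated positively across features and 6 still did once the mean dye effect was removed, so the exchange on some arrays is not borne out by the values.

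Complement is a cascade of plasma proteases and binding proteins that tags microbes and can end in a pore in their membrane. Coagulation is a second protease cascade, which ends in thrombin and fibrin and is dissolved by plasmin. Most serpins are inhibitors that trap a protease in a covalent complex, and several of them hold these cascades in check. Apolipoproteins coat the particles that carry fat and cholesterol in blood. Hepatocytes make most of these proteins, C1q is made by macrophages, which in liver are the Kupffer cells, and factor VIII is made by endothelial cells.

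Fasted livers had lower RNA of 14 of the 38 genes than control livers, and higher RNA of 1, Apoa1. The 14 were the thrombin inhibitor Serpind1, the complement genes Mbl2, C6, C4bp, Cfi and C1qa, the clotting factor genes F10, F7 and F8, the serpins Serpinf2, Serpina1d, Serpina1e and Serpini1, and the apolipoprotein gene Apoc1. Over all features 4.59% passed as lower and 3.36% as higher, and 5.54% of the named genes passed as lower. The median log2 ratio of the 38 genes was -0.20, against 0.01 for all features. With the first arrays of the swaps alone the median of the 38 genes was 0.05, and with the second arrays alone it was -0.37. High-fat livers had 0 of the 38 genes past the threshold against control livers, while 5 of the 38 were lower in fasted than in high-fat livers.

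The DNA upstream of the genes that changed most is shown first. RefSeq windows of the mouse build GRCm38.p6 matched 33 of the 38 genes and covered the 250 bases before an annotated transcription start. Of the 14 genes that fell, 11 had a window. The last 100 bases of the window are printed for the 6 genes with the largest falls, for the thrombin precursor gene F2, which did not pass, and for Apoa1. Capitals mark AGGTCA on either strand, the core motif that many nuclear receptors bind, or GTTAAT on either strand, the core of an HNF1 site.
Serpind1, chr16:17331271-17331370, plus strand: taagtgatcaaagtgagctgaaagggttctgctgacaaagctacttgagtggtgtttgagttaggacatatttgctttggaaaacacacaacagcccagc
Mbl2, chr19:30232828-30232927, plus strand: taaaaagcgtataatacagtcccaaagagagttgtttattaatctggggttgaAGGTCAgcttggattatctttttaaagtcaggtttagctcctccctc
C6, chr15:4727110-4727209, plus strand: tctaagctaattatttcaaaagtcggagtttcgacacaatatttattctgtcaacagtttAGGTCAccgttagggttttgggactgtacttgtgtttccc
C4bp, chr1:130661619-130661718, minus strand: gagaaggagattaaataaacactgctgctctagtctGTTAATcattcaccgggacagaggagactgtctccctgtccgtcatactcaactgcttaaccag
F10, chr8:13037208-13037307, plus strand: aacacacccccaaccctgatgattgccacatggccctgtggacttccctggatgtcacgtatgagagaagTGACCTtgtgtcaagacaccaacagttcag
F7, chr8:13025934-13026033, plus strand: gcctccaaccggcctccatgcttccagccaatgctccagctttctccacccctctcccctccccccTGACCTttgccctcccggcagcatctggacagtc
F2, chr2:91636458-91636557, minus strand: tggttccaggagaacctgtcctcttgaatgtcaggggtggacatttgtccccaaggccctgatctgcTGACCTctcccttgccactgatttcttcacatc
Apoa1, chr9:46228530-46228629, plus strand: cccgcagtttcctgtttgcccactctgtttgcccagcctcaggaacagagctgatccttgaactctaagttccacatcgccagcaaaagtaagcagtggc

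The letters AGGTCA, or TGACCT where the match lies on the opposite strand, stood between 25 and 47 bases before the start of Mbl2, C6, F10 and F7. F2 held TGACCT 33 to 28 bases before its start. Within 60 bases of a start, 4 of the 11 genes that fell held AGGTCA on either strand (36.4%), as did 3 of 21 genes that did not pass (14.3%) and 3.94% of 27025 genes. That distance was chosen after the matches were seen. Over the whole 250 bases the shares were 45.5% of the 11, 23.8% of the 21 and 15.8% of all genes. GTTAAT was found in 27.3% of the 11 genes, those being C4bp, Serpina1d and Serpina1e, in 4.76% of the 21 and in 7.49% of all genes. TTGCNNAA, a C/EBP motif, was found in 18.2%, 14.3% and 10.8%, and TATAAA in 0 of the 11 genes, 19.0% of the 21 and 14.3% of all genes. Among the 11, TTGCNNAA was found only in Serpina1d and Serpina1e. The windows of these paralogs are 94.7% identical over 188 bases, so their matches to GTTAAT and TTGCNNAA are not independent cases. TGACGTCA, the cyclic AMP response element, was found in 0 of the 33 windows and in 1.77% of all genes. No motif contains another, and each match is a run of letters, not a measured binding site.

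**Figure D1:**
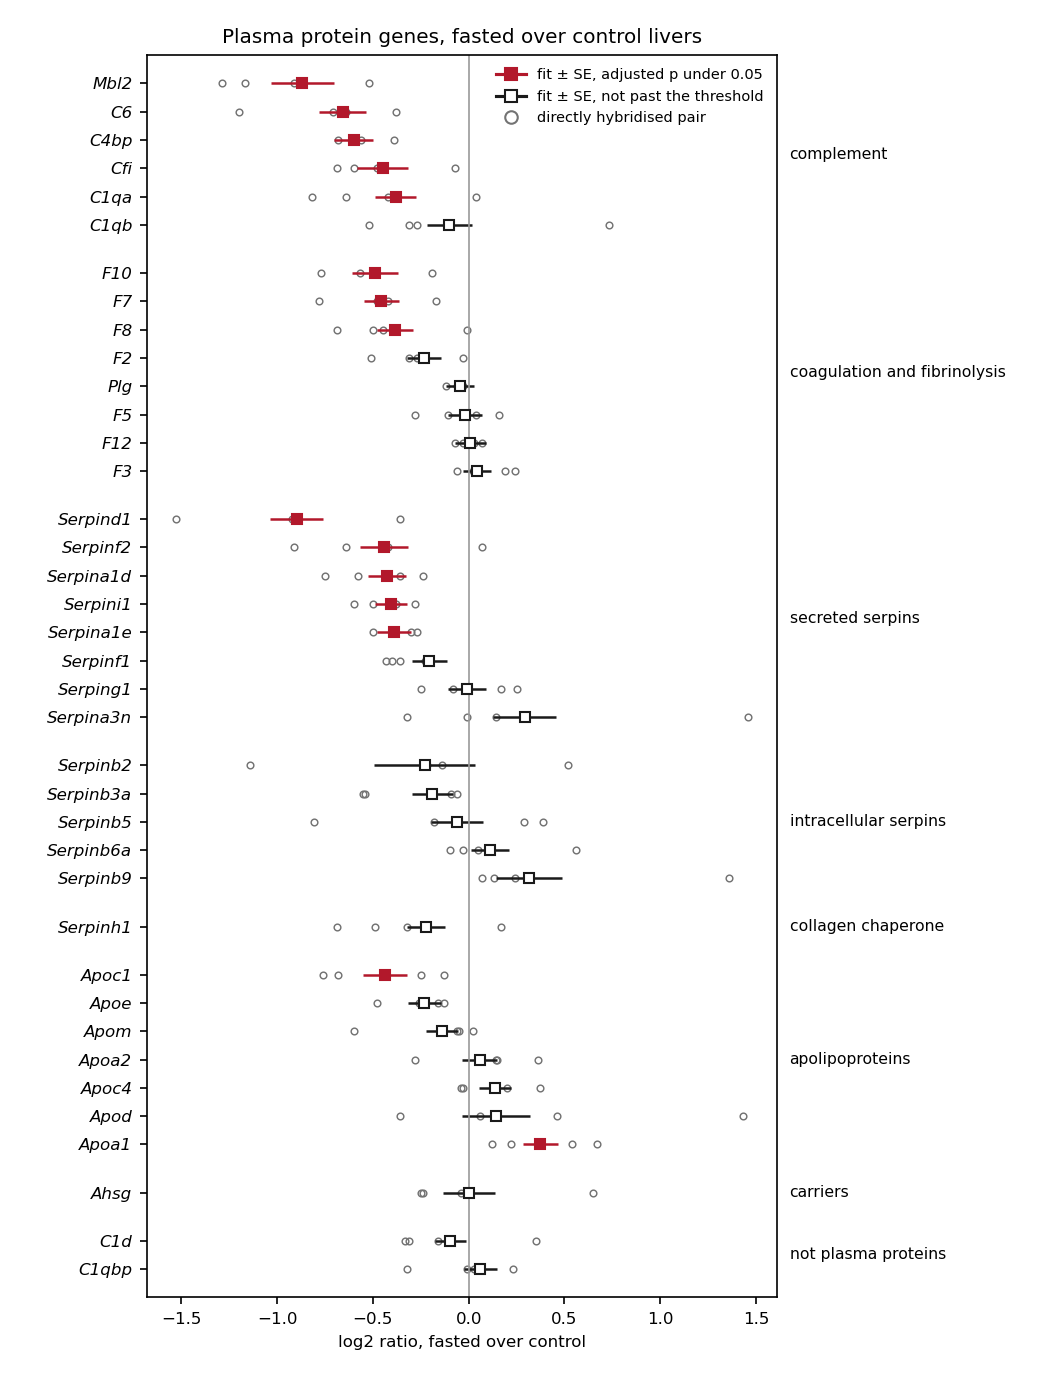
Log2 ratio of fasted over control livers for the 38 genes, grouped by role. Squares with bars are the fit over all 14 pairs with its standard error, filled where the adjusted p was under 0.05, and open circles are the 4 directly hybridised pairs; 5 of the 6 complement genes are filled and lie below 0, and none of the 5 intracellular serpins is filled.

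Of the 6 complement genes, 5 passed as lower in fasted than in control livers and C1qb did not, and the median of the 6 was -0.53. Mbl2 encodes mannose-binding lectin, which recognises sugars on microbes and starts the lectin pathway. Its log2 ratios of fasted over control livers were -0.91 for fasted 11 and control 4, -1.17 for fasted 13 and control 5, -1.29 for fasted 14 and control 3, and -0.52 for fasted 15 and control 2. All 4 pairs lay below 0, and the fit over all pairs was -0.87 ± 0.16 (SE; adjusted p = 0.00244). C6 encodes a component of the terminal pore, the membrane attack complex. In the same order of fasted mice 11, 13, 14 and 15, its log2 ratios were -0.64, -0.71, -0.38 and -1.20, and its fit was -0.66 ± 0.12 (adjusted p = 0.00216). C4bp encodes the alpha chain of the C4b-binding protein, an inhibitor of the classical and lectin pathways. Its pairs lay at -0.61, -0.68, -0.39 and -0.56, with a fit of -0.60 ± 0.10 (adjusted p = 0.000895). Mbl2, C6 and C4bp each lay below 0 on all 8 arrays of these pairs.

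Cfi encodes factor I, the protease that cuts C3b and C4b once a cofactor holds them. Its ratios of fasted over control livers were -0.48, -0.69, -0.60 and -0.07 in the pairs of fasted 11, 13, 14 and 15. The last of these was near 0, and the fit of -0.45 ± 0.13 passed only narrowly (adjusted p = 0.0492). C1qa encodes the A chain of C1q, which binds antibody on a surface and starts the classical pathway. It lay at -0.42, -0.82, -0.64 and 0.04 in the same pairs, so that the pair of fasted 15 lay on the other side of 0, and the fit was -0.38 ± 0.11 (adjusted p = 0.0364). C1qb, the gene of the B chain, did not pass, with a fit of -0.10 ± 0.12 and pairs from -0.52 to 0.73. Its one positive pair was again that of fasted 15 and control 2, whose second array had the widest spread of all 28.

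C1qa and C1qb are markers of Kupffer cells and macrophages, and the other genes listed for those cells moved in the same direction. Of 7 genes measured from that list, C1qa and C1qb included, 5 passed as lower in fasted than in control livers. All 7 fits lay below 0, with a median of -0.49. Over all features 4.59% passed as lower and 3.36% as higher. Among the listed genes that are not in the set, Cd5l was at -0.68 ± 0.13 and Clec4f, a lectin of mouse Kupffer cells, at -0.49 ± 0.10. The lysozyme gene Lyz1 was at -0.75 ± 0.10, and C1qc, which lies between C1qb and C1qa on the chromosome, at -0.57 ± 0.11. Marco, at -0.17 ± 0.11, did not pass (adjusted p = 0.425). The part of these genes in the result for C1qa was not tested. Of 7 hepatocyte markers outside the set, 2 passed as higher (Arg1 and Tdo2) and 2 as lower (Ttr and Otc). Both measured genes of the erythroid list were lower as well, Hba-a1 at -0.65 and Fech at -0.42. So were 1 of 6 neutrophil markers, Camp (-2.14), and 1 of 2 genes of the adipocyte list, Car3 (-2.75). Lep, the other adipocyte gene, was at 0.09 and did not pass. Of 3 stellate cell and fibroblast markers, Dcn passed as higher (0.29 ± 0.08). None of 2 cholangiocyte, 4 lymphocyte, 3 platelet and 1 exocrine pancreas markers passed. Whether RNA of the listed genes came from those cells, and their part in the falls of the set, was not tested.

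Of the 8 genes of coagulation and fibrinolysis, 3 passed as lower in fasted livers and none as higher. F10 encodes factor X, the protease that turns prothrombin into thrombin. Its ratios of fasted over control livers were -0.19, -0.77, -0.49 and -0.57 for fasted 11, 13, 14 and 15, and its fit was -0.49 ± 0.12 (adjusted p = 0.0143). F7 encodes factor VII, which starts clotting together with tissue factor. The pairs lay at -0.42, -0.78, -0.48 and -0.17, with a fit of -0.46 ± 0.09 (adjusted p = 0.0045). F7 and F10 are direct neighbours in the RefSeq gene order, and both lay below 0 in every one of the 4 pairs.

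F8 encodes factor VIII, the cofactor whose loss causes haemophilia A. Its ratios were -0.45, -0.50, -0.69 and -0.01 in the pairs of fasted 11, 13, 14 and 15, and the fit was -0.38 ± 0.09 (adjusted p = 0.0161). F8 counts among 8 endothelial markers. Against 4.59% of all features, Kdr (-0.30 ± 0.09) and Tek (-0.33 ± 0.10) of this list also passed as lower while the other 5 did not. Their part in the result for F8 was not tested. F2, which encodes prothrombin, did not pass: its pairs lay at -0.03, -0.27, -0.51 and -0.31, and its fit was -0.23 ± 0.09 (adjusted p = 0.125). Plg, the gene of plasminogen, had pairs between -0.12 and -0.03 and a fit of -0.05 ± 0.07. F3, F5 and F12 had fits from -0.02 to 0.04 with standard errors of 0.07 to 0.09.

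Secreted serpins held the gene with the largest fall of the set. Serpind1 encodes heparin cofactor II, an inhibitor of thrombin. Its ratios of fasted over control livers were -0.92 for fasted 11, -1.53 for fasted 13, -0.90 for fasted 14 and -0.36 for fasted 15, each against its own control mouse. All 8 arrays lay below 0, and the fit was -0.90 ± 0.14 (adjusted p = 0.000427). Serpinf2 encodes alpha-2-antiplasmin, the main inhibitor of plasmin. It was lower in 3 of the 4 pairs (-0.64, -0.91 and -0.42) and not in that of fasted 15 (0.07), with a fit of -0.44 ± 0.12 (adjusted p = 0.0351). Serpinf2 lies next to Serpinf1, the gene of pigment epithelium-derived factor, which did not pass (-0.20 ± 0.09, adjusted p = 0.214) although its 4 pairs lay between -0.43 and -0.23.

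Serpina1d and Serpina1e belong to the mouse family of alpha-1-antitrypsin genes, whose products inhibit neutrophil elastase and related proteases. In the RefSeq gene order they are separated by Serpina1a and Serpina1c. The family is so alike in sequence that a probe can bind transcripts of several members, and the values may not belong to the named gene alone. Their upstream windows are also alike: with the Serpina1e window moved by 62 bases, 178 of 188 bases were identical (94.7%). The matching stretch ends at the base before the annotated start of Serpina1d, and 63 bases before that of Serpina1e. It is printed for both genes, with capitals at the 10 bases that differ.
Serpina1d, chr12:103773634-103773821, minus strand: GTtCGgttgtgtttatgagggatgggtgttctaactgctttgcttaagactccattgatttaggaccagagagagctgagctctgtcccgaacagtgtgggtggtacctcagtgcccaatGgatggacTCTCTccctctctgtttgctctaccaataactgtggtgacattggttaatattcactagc
Serpina1e, chr12:103956960-103957147, minus strand: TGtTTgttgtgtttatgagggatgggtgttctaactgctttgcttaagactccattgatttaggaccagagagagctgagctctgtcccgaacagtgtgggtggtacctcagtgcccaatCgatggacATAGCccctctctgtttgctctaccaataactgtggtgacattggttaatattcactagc

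Serpina1d had ratios of fasted over control livers of -0.58, -0.75, -0.24 and -0.36 for fasted 11, 13, 14 and 15. Serpina1e had -0.27, -0.50, -0.30 and -0.40. All 8 pair values lay below 0, and the fits were -0.43 ± 0.10 (adjusted p = 0.0123) for Serpina1d and -0.39 ± 0.09 (adjusted p = 0.0101) for Serpina1e. The swapped arrays behind them, however, lay on opposite sides of 0. Serpina1d averaged 0.20 over the 4 first arrays of the swaps and -1.17 over the 4 second arrays, and Serpina1e averaged 0.28 and -1.02. With the first arrays alone the fit for Serpina1e was 0.29 (adjusted p = 0.0148), a call in the other direction. The direction of both genes therefore rests on the averaging of exchanged dyes.

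Serpini1, the gene of neuroserpin, an inhibitor of tissue plasminogen activator known mainly from neurons, had ratios of -0.60, -0.50, -0.28 and -0.38 in the same pairs. Its fit was -0.41 ± 0.09 (adjusted p = 0.00576). It averaged -0.03 over the first and -0.85 over the second arrays of these pairs, and its fit with the first arrays alone was 0.03, on the other side of 0. Serpina3n, an acute-phase serpin, did not pass (0.29 ± 0.16, adjusted p = 0.362): the pair of fasted 15 stood at 1.46 and the other 3 lay between -0.32 and 0.14. Serping1, the gene of the C1 inhibitor, was at -0.01 ± 0.10.

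Serpins that act inside cells did not pass in either direction (0 of 5), and their median ratio of fasted over control livers was -0.06. Serpinb9, an inhibitor of granzyme B in its human form, was at 0.31 ± 0.17, with 1 pair at 1.36 (fasted 15 and control 2) and the other 3 between 0.07 and 0.24. Serpinb2, the gene of plasminogen activator inhibitor 2, was at -0.23 ± 0.26 with pairs from -1.14 to 0.52. Serpinh1, which helps collagen fold in the endoplasmic reticulum, was at -0.22 ± 0.10 (adjusted p = 0.229).

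Apolipoprotein genes moved in both directions. Apoa1 encodes the main protein of high-density lipoprotein, and its ratios of fasted over control livers were 0.54 for fasted 11, 0.12 for fasted 13, 0.22 for fasted 14 and 0.67 for fasted 15. All 4 pairs lay above 0, and the fit was 0.37 ± 0.09 (adjusted p = 0.0172). Apoa1 averaged 0.64 over the first and 0.14 over the second arrays of these pairs. With the second arrays of the swaps alone its fit was 0.20 and did not pass (adjusted p = 0.54). Without control 2, control 4, fasted 11 or fasted 15 the call was lost (adjusted p from 0.0515 to 0.0828). Apoc1 encodes a small apolipoprotein of triglyceride-rich particles and high-density lipoprotein. Its ratios were -0.13, -0.76, -0.68 and -0.25, and its fit was -0.44 ± 0.11 (adjusted p = 0.024). The direction turned with the first arrays of the swaps alone (0.05), and the call was lost when any 1 of 6 mice was left out (highest adjusted p 0.137). Apoc1 lies between Apoc4 and Apoe in the RefSeq gene order, and neither neighbour passed.

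Apoe, which encodes the ligand that clears remnant particles, had pairs from -0.48 to -0.13, all below 0, and a fit of -0.23 ± 0.09 (adjusted p = 0.127). Apod was at 0.14 ± 0.18, with 1 pair at 1.43 and the others from -0.36 to 0.46. The high pair was that of fasted 15 and control 2, with 0.09 on its first array and 2.76 on its second, the array with the widest spread. Apoa2, Apoc4 and Apom had fits between -0.14 and 0.14. Fetuin-A (Ahsg), a carrier that binds calcium phosphate, was at 0.00 ± 0.13, and C1d and C1qbp were at -0.10 ± 0.08 and 0.06 ± 0.09.

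**Figure D2:**
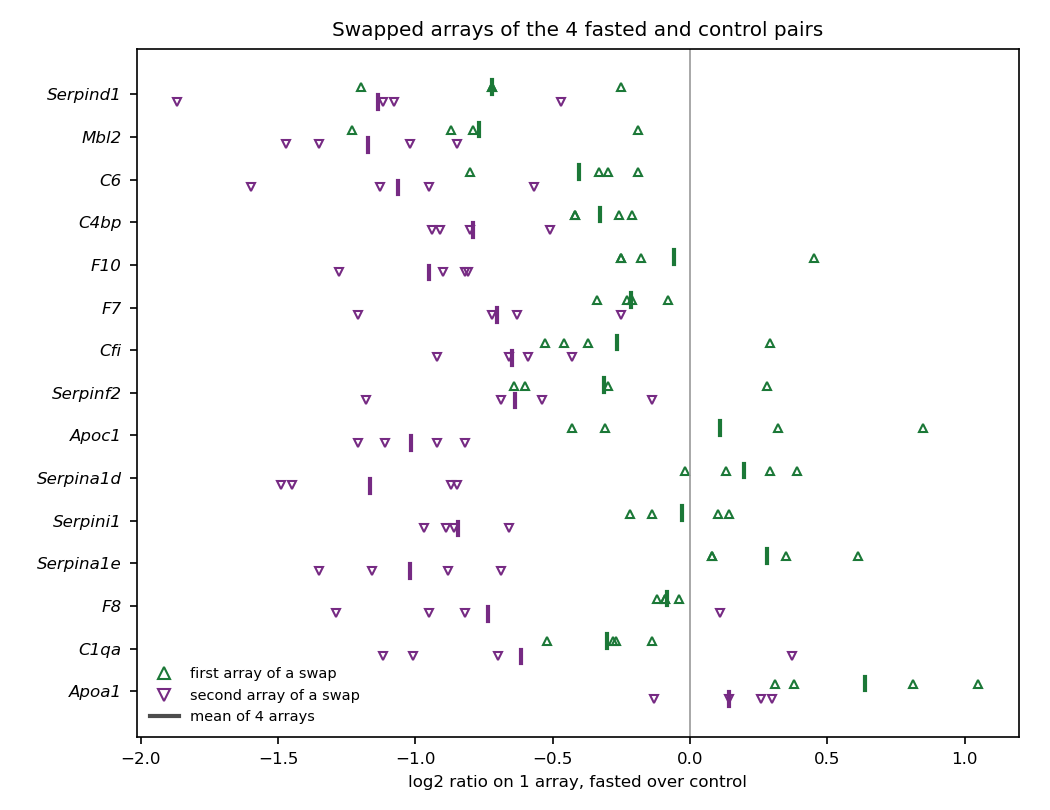
Log2 ratios of fasted over control livers on single arrays for the 15 genes past the threshold. Upward triangles are the first and downward triangles the second arrays of the 4 swaps, and thick strokes their means; the mean of the second arrays lies below that of the first for each of the 15 genes, and for Serpina1d, Serpina1e and Apoc1 the means lie on opposite sides of 0.

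The first and second arrays of the swaps differed for these genes. A dye effect cannot be told apart here from a failed exchange on some arrays, and the averaging of a swap removes only a dye effect. Over the 14 genes that fell, 42 of 56 values from the first arrays of the fasted and control pairs lay below 0 with a median of -0.23, and 54 of 56 values from the second arrays lay below 0 with a median of -0.90. The mean was below 0 on both kinds of array for 11 of the 14 genes. Serpind1, Mbl2, C6, C4bp, Cfi, Serpinf2 and C1qa each averaged under -0.20 on the first arrays as well as the second, as did F7 (-0.22 and -0.70). For F10, F8 and Serpini1 the means of the first arrays were near 0 (-0.058, -0.085 and -0.03), against -0.95, -0.74 and -0.85 of the second. With the first arrays alone F10 (-0.05, adjusted p = 0.804), F8 (-0.049, adjusted p = 0.67) and F7 (-0.153, adjusted p = 0.152) did not pass. The dye effect, taken as the mean of the arrays of a swap before they were turned, passed for 12 of the 38 genes and for 2366 of all 11457 features. It was positive in all 12 genes and in 1241 of the 2366 features. With the first arrays alone 8 of the 38 genes passed as lower and 8 as higher in fasted livers, and 31.7% of all features passed in either direction, against 7.95% in the full fit. With the second arrays alone 13 of the 38 passed as lower and 0 as higher, and 10.5% of all features passed.

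The calls differed in how far they rested on single mice. Serpind1, Mbl2, C6, C4bp and F7 passed in fasted over control livers without any 1 of the 15 mice, with adjusted p values of at most 0.0349. The other 10 calls were each lost without at least 2 of the mice. Without fasted 13 or without control 5, which were hybridised together, 6 genes passed as lower, and without control 4, fasted 11 or fasted 14 it was 8, against 14 with all mice. The fit on the 4 direct pairs alone called none of the 38 genes and 0.995% of all features. In it Mbl2 was at -0.97 (adjusted p = 0.064), Serpind1 at -0.93 (adjusted p = 0.114) and C6 at -0.73 (adjusted p = 0.133), so the ratios were as large as in the full fit and the calls were not reached.

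Against control livers, high-fat livers had 0 of the 38 genes past the adjusted threshold, with a median log2 ratio of -0.07. Over all features 0.349% passed in either direction. At an unadjusted p under 0.05, 6 of the 38 genes were lower and 1 was higher, against 5.79% of all features in either direction. The 2 genes nearest the threshold were F8 and Apoa1. F8 had log2 ratios of high-fat over control livers of -0.24 for high-fat 6, -0.16 for high-fat 7, -0.34 for high-fat 8, -0.73 for high-fat 9 and -0.52 for high-fat 10, all 5 below 0, and its fit was -0.41 ± 0.09 (adjusted p = 0.0652). Apoa1 had 0.74, 0.13, 0.29, 0.31 and 0.37 in the same order, all 5 above 0, with a fit of 0.39 ± 0.09 (adjusted p = 0.0825). Both genes passed in this comparison when arrays were centred on their medians (adjusted p = 0.0338 for F8 and 0.0382 for Apoa1) or scaled to a common spread.

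Other genes that fell with fasting had ratios of high-fat over control livers nearer to 0. Serpind1 lay at -0.14, -0.10, -0.08, -0.31 and -0.26 for high-fat 6 to high-fat 10, with a fit of -0.20 ± 0.13. C6 lay at 0.05, 0.21, 0.21, -0.31 and -0.13, on both sides of 0, with a fit of -0.05 ± 0.12. Mbl2 had a fit of -0.26 ± 0.16 with pairs from -0.70 to 0.20. Cfi (-0.34 ± 0.13), Serpini1 (-0.22 ± 0.08), F10 (-0.24 ± 0.11) and Serpina1d (-0.21 ± 0.10) had unadjusted p values of 0.017, 0.017, 0.0473 and 0.0413 and did not pass the adjusted threshold. The high-fat and the fasted livers were set against some of the same control mice, so the values of the pair of comparisons are not independent of each other.

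**Figure D3:**
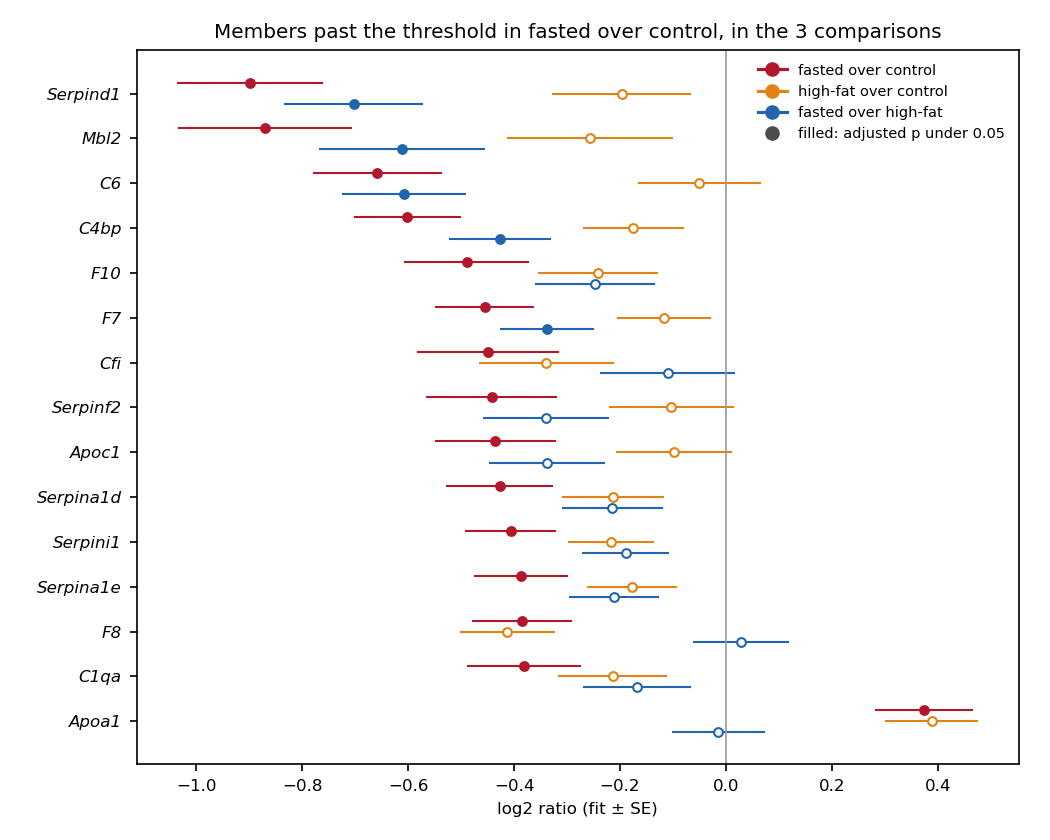
Fitted log2 ratios with standard errors for the 15 genes past the threshold in fasted over control livers, in each of the 3 comparisons; filled points have an adjusted p under 0.05. The points of fasted over high-fat livers lie near 0 for F8 and Apoa1 and are filled for Serpind1, Mbl2, C6, C4bp and F7.

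Fasted livers set directly against high-fat livers ask whether the effect of fasting differs from that of the diet, since the control level cancels. Serpind1, Mbl2, C6, C4bp and F7 passed as lower in fasted than in high-fat livers and none of the 38 genes passed as higher. Over all features 2.77% passed as lower and 2.7% as higher, and 3.06% of named genes passed as lower. The median of the 38 genes was -0.10. Serpind1 had ratios of fasted over high-fat livers of -0.96 for fasted 11, -0.40 for fasted 12, -1.40 for fasted 13, -0.44 for fasted 14 and -0.24 for fasted 15, each against its own high-fat mouse. All 5 lay below 0, and the fit was -0.70 ± 0.13 (adjusted p = 0.00304). C6 had -1.07, -0.59, -0.65, -0.32 and -0.12, also all below 0, with a fit of -0.61 ± 0.12 (adjusted p = 0.00362).

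Mbl2 was less even across the mice: its ratios of fasted over high-fat livers were -1.05, 0.14, -1.33, -0.18 and -0.35 for fasted 11 to fasted 15, with a fit of -0.61 ± 0.16 (adjusted p = 0.0273). C4bp had -0.69, -0.42, -0.91, -0.11 and -0.18 and a fit of -0.43 ± 0.10 (adjusted p = 0.012). F7 had -0.61, -0.07, -0.69, -0.25 and -0.08 and a fit of -0.34 ± 0.09 (adjusted p = 0.0324). In all 3 genes, as in Serpind1 and C6, the 2 lowest pairs were those of fasted 11 and fasted 13. Serpind1 and C6 kept their call in this comparison without any 1 mouse, while Mbl2 lost it without 6, C4bp without 3 and F7 without 10 of the 15 mice. With the second arrays of the swaps alone none of the 5 passed.

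For the other 9 genes that were lower in fasted than in control livers, the difference between fasted and high-fat livers did not pass. Their fits ran from -0.34 ± 0.12 for Serpinf2 and -0.34 ± 0.11 for Apoc1 to 0.03 ± 0.09 for F8. Apoa1 stood at -0.01 ± 0.09, with pairs from -0.30 to 0.17. C1qbp came nearest to a call as higher (0.27 ± 0.08, adjusted p = 0.0712), with all 5 pairs between 0.09 and 0.61.

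**Figure D4:**
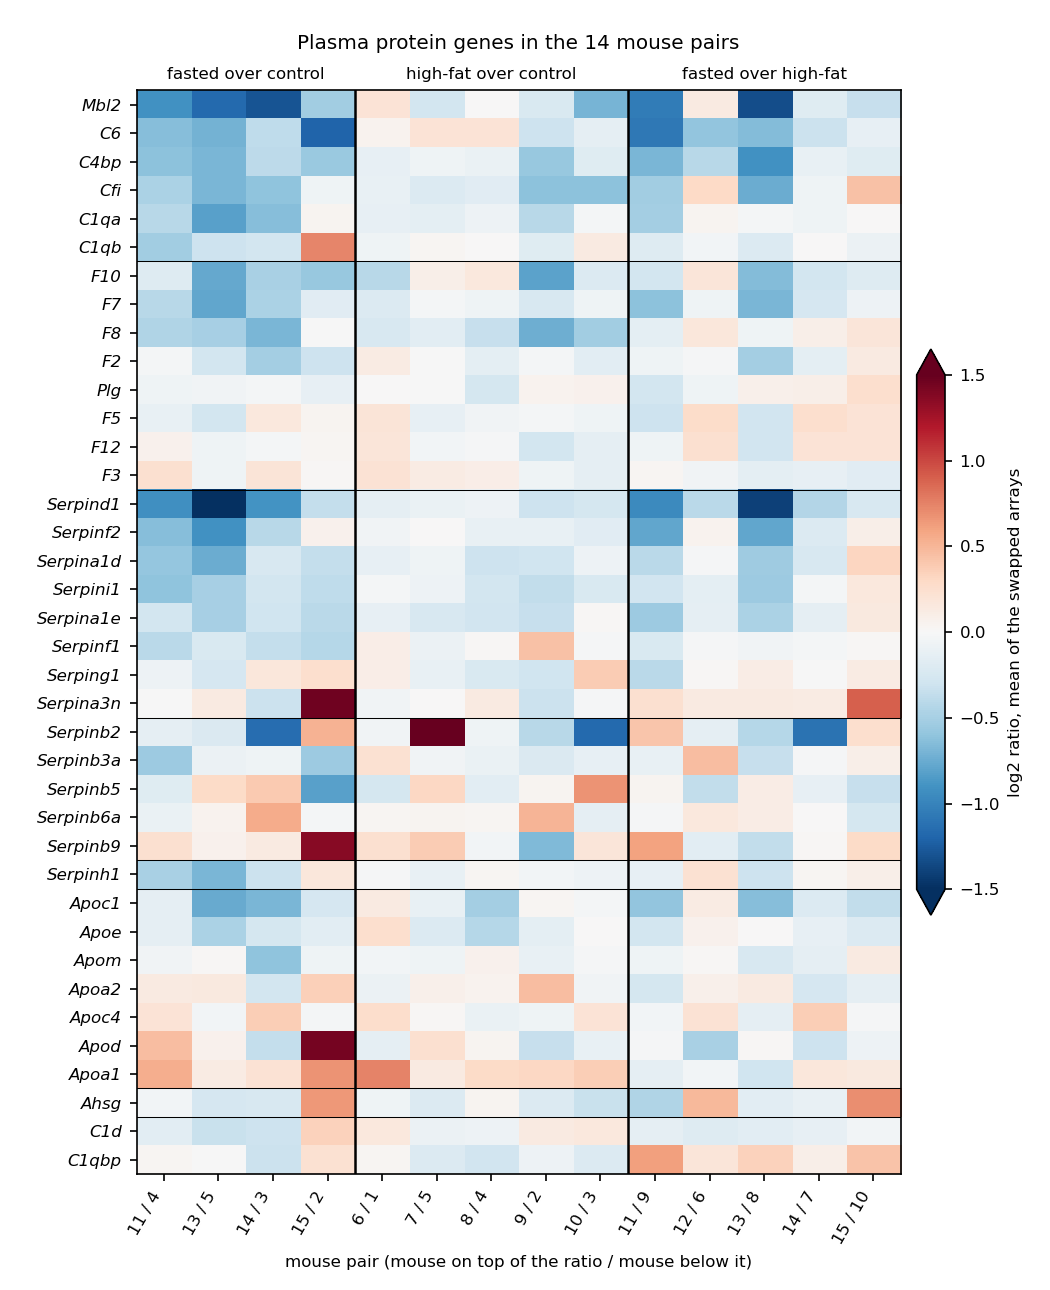
Log2 ratio of each of the 38 genes in each of the 14 mouse pairs, blue below and red above 0, with pairs named as the mouse on top of the ratio over the mouse below it. The genes that fell have their lowest medians in the columns of fasted 13, and the column of fasted 15 and control 2 holds the positive values of Serpina3n (1.46), Apod (1.43) and Serpinb9 (1.36). The Apod value rests on its second array (2.76, against 0.09 on the first).

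The fall in fasted livers was not even across mouse pairs. The median of the 14 genes that fell was -0.76 for fasted 13 and control 5, -0.53 for fasted 11 and control 4, -0.48 for fasted 14 and control 3, and -0.36 for fasted 15 and control 2. Against high-fat mice the median of the same genes was -0.65 for fasted 13, -0.57 for fasted 11 and -0.19 for fasted 14. It was near 0 for fasted 15 (-0.04) and for fasted 12 (0.01). The genes were chosen on the fit over all these pairs, so the medians describe the pairs and are no test. In fasted 12, whose pair shared no mouse with a fasted and control pair, 7 of the 14 genes lay below 0 against high-fat 6.

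Genes of the same pathways outside the set were looked up from lists of complement receptors and regulators, clotting partners, lipoprotein genes, other plasma proteins and liver transcription factors. Over all features 4.59% passed as lower in fasted than in control livers and 3.36% as higher. Of 12 other complement genes 2 passed as lower in fasted than in control livers and 0 as higher. These were Hc (-0.69 ± 0.12), the mouse gene of complement C5, and Vtn (-0.37 ± 0.09), which encodes vitronectin, an inhibitor of the terminal pore. Masp1 (adjusted p = 0.554) and Masp2 (adjusted p = 0.177), the proteases that bind mannose-binding lectin, did not pass. Of 6 clotting partners 2 passed as lower: Proc, the gene of the anticoagulant protein C (-0.37 ± 0.09), and Ggcx (-0.37 ± 0.08), the carboxylase that makes factors VII and X and protein C able to bind calcium. Ggcx was also lower in fasted than in high-fat livers (-0.41 ± 0.08, adjusted p = 0.00374).

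Of 16 other plasma protein genes 6 passed as lower and 1 as higher in fasted livers, against 4.59% and 3.36% of all features. Those lower were the thyroxine carrier gene Ttr, the acute-phase genes Orm1, Saa2 and Apcs, Saa4, which encodes the constitutive serum amyloid A, and the protease inhibitor gene Pzp, with fits from -1.19 to -0.58. Lbp, which encodes a binding protein for bacterial lipopolysaccharide, was higher (0.56 ± 0.11, adjusted p = 0.003). In high-fat livers 3 of the 16 passed as lower than in control livers, against 0.349% of all features in either direction. These were Hp, the haptoglobin gene (-0.81 ± 0.14), Agt, the angiotensinogen gene (-0.48 ± 0.09), and Saa2 (-1.09 ± 0.22). Of 9 lipoprotein genes 1 passed in fasted livers, the remnant receptor gene Lrp1 (-0.78 ± 0.12), and the particle assembly gene Mttp was at 0.01 ± 0.08.

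Among 17 transcription factor and cytokine receptor genes 1 passed as lower and 1 as higher in fasted livers. Over all features 4.59% passed as lower and 3.36% as higher, so these counts are near those shares. Cebpa, which encodes a hepatocyte factor that binds promoters of plasma protein genes, was at -0.39 ± 0.08 (adjusted p = 0.00609), and it was also lower in fasted than in high-fat livers (-0.46 ± 0.08). Nr1h4, the gene of the bile acid receptor FXR, was at 0.55 ± 0.09 (adjusted p = 0.0011). Hnf4a, whose product binds paired copies of cores like AGGTCA, was at 0.07 ± 0.10 and did not pass (adjusted p = 0.753). Cebpb, Foxa2 and Nr3c1 were at -0.30 ± 0.11, -0.21 ± 0.09 and -0.25 ± 0.08 and did not pass. Cebpd, Ppargc1a and Rxra, at 0.48 ± 0.21, 0.25 ± 0.11 and 0.19 ± 0.08, did not pass either. At an unadjusted p under 0.05, 4 of the 17 genes were higher and 4 lower, against 1049 and 1205 of all 11457 features.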

How the data were processed

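The deposited values are the authors' processed dye ratios, 1 per spot and array, taken as log2 ratios. The submitters' processing notes name limma, with no version or role. Background correction, normalization, log base and direction are not stated in the labels or headers. Liver RNA was amplified and coupled to Cy3 and Cy5, per the labels' protocols. Array medians ran from -0.229 to 0.349 and standard deviations from 0.293 to 1.26.

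Both arrays of a swap were given the same sign and averaged to 1 value per pair. Of 16416 spots 9758 had a gene name and 6658 none, and spots of a gene were averaged. One generalised least squares fit took all 14 pairs, with pairs that share a mouse correlated according to an estimated share of variance between mice of 17.96%. Moderation used limma 3.58.1 (R 4.3.3), with 12 residual and 4.514 prior degrees of freedom, and the Benjamini-Hochberg adjustment ran over 11457 features. The fit was also run on data simulated from its own model, with no dye effect and no failed exchange, so that run cannot speak to the swaps. Motifs were counted with Python 3.11.15, and figures drawn with matplotlib 3.10.9. Alternatives were other array scalings, single arrays of a swap, single spots, direct pairs alone, other shares between mice, and each mouse left out.

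The genes, their roles and all lists were chosen with earlier results of these data known. Genes past the threshold, textbook genes and up to 2 others per role are named, and the rest are given by range. Serping1, the genes that stand in the closing section, and the factors and markers named with values but not past the threshold were singled out after their values were seen.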

Additional observations from a re-analysis of the deposited data

Results flagged for a closer look

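The pairs of each gene and comparison were searched for 1 pair that stood apart from the others by Dixon's test at 95%. It found 9 of 114 sets, and chance gives about 5% of sets. In fasted over control livers, Serpinb9 stood at 1.36 in the pair of fasted 15 and control 2, with the other 3 pairs between 0.07 and 0.24. Apom, the apolipoprotein that carries sphingosine 1-phosphate, stood at -0.60 in the pair of fasted 14 and control 3, with the others between -0.06 and 0.02. In fasted over high-fat livers, Serpina3n stood at 0.90 for fasted 15 and high-fat 10 and the other 4 pairs lay between 0.12 and 0.24. C1qa (-0.51) and Serping1 (-0.41) stood apart in the pair of fasted 11 and high-fat 9. In high-fat over control livers, C4bp (-0.57) and Serpinb6a (0.51) stood apart in the pair of high-fat 9 and control 2, Plg (-0.26) in that of high-fat 8 and control 4, and F5 (0.19) in that of high-fat 6 and control 1.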

How the results depend on the processing

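Leaving out each mouse in turn gave 6 to 15 genes lower and 0 to 1 higher in fasted over control livers, 0 to 1 lower and 0 higher in high-fat over control livers, and 2 to 7 lower and 0 to 1 higher in fasted over high-fat livers. In the same order of comparisons, arrays scaled to a common spread gave 9 lower and 1 higher, 1 lower and 1 higher, and 5 lower and 1 higher. Centred arrays gave 14 lower and 1 higher, 1 lower and 1 higher, and 5 lower and 0 higher. First arrays alone gave 8 lower and 8 higher, 0 lower and 2 higher, and 5 lower and 2 higher, while the share of all features called was 31.7%, 5.64% and 9.52%, against 7.95%, 0.349% and 5.46% in the full fit. Second arrays alone gave 13 lower, 0 and 0, with 0 higher, and 10.5%, 0.812% and 1.4% of all features. A share between mice of 0 gave 14 lower and 1 higher, 1 lower and 0 higher, and 5 lower and 0 higher. A share of 0.9 gave 1 lower, 0 and 0, with 0 higher, and the direct pairs alone 0 in all. Both spots passed singly for 11 lower genes and 1 higher, for 0 genes, and for 3 lower genes. Without the pair of fasted 15 and control 2, chosen after seeing the data for its wide array, there were 14 lower and 1 higher, 1 lower (F8) and 6 lower genes. With the first arrays alone 4 fits of fasted over control livers turned positive: Apoc1 (0.053), Serpina1d (0.303), Serpina1e (0.287) and Serpini1 (0.027). Fewer pairs, or 1 array of each swap, leave less data, and the cause of these changes was not tested. Median ratios of all features moved by under 0.1 under both scalings, with either array of a swap, with either share and without the widest array's pair. Signal over background is unknown, so a ratio of a dim spot cannot be told from that of a bright one. Mice hybridised together are paired within every ratio, and no block by replicate number was fitted because the numbers in the labels name single mice and none occurs in more than 1 group.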

Other observations

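Serpinb2 had a pair of livers that stood out and agreed across arrays. Its log2 ratio was 1.66 for high-fat 7 over control 5 and -1.11 for fasted 14 over high-fat 7, so that high-fat 7 was the higher liver in both of its pairs. It was -1.14 for fasted 14 over control 3 and -1.17 for high-fat 10 over control 3, so that control 3 was the higher liver in both of its pairs as well. In these 4 pairs the swapped arrays lay on the same side of 0, for example 1.81 and 1.51 for high-fat 7 over control 5. The gene did not pass in any comparison, and its standard error of 0.26 in fasted over control livers was among the widest of the set.

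Fasted 15 was the higher liver for Serpina3n in both of its pairs, with 1.46 over control 2 and 0.90 over high-fat 10, and likewise for Ahsg, with 0.65 and 0.70. The other fasted mice had Serpina3n ratios from -0.32 to 0.24 and Ahsg ratios from -0.45 to 0.49. These genes were picked after their values were seen.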
